A study of Mus musculus with 4 samples.

Results

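Nwd2-rich neurons are the nuclei in which the Nwd2 gene gave at least 10 molecules among the neurons of 4 single-nucleus libraries of mouse thalamic tissue. Nwd2 encodes a protein named for its NACHT and WD repeat domains. A nucleus was kept when it held at least 4000 unique molecular identifiers (UMIs, which count RNA molecules), under 5% mitochondrial UMIs and a UMI of at least 4 of the neuronal genes Rbfox3, Snap25, Syt1, Myt1l and Celf4. Of 17657 such neurons, 568 had 10 or more Nwd2 UMIs. All libraries came from wild-type C57BL6 mice of 7 to 8 weeks, taken 7 days after an injection in the right-hand VPM/VPL, nuclei of the thalamus. The NS group (n = 2 libraries) received saline. The COL group (n = 2 libraries) received Coll IV, the type IV collagenase, which breaks vessel walls and causes bleeding. The libraries are called NS1, NS2, COL1 and COL2. Each library pooled 3 mice, so that no value belongs to a single animal, and p-values measure the spread between libraries.

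The habenula lies at the upper edge of the thalamus and has a medial and a lateral part. Medial habenula neurons are known for acetylcholine, for tachykinin peptides and for nicotinic receptors built from the α3, α5 and β4 subunits, and they send their axons to the interpeduncular nucleus of the midbrain. Their identity is set early by the transcription factor Pou4f1. Dopamine neurons of the midbrain make their transmitter with Th and Ddc, load it into vesicles with Slc18a2 and take it up again with Slc6a3. Thalamic relay neurons are marked by other genes, among them Prkcd, Necab1, Lef1 and Synpo2.

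The files held 9681, 10438, 5943 and 6270 barcodes for NS1, NS2, COL1 and COL2. Added up over all pairs of libraries, 102 barcodes were shared. No barcode marked a Nwd2-rich neuron in more than 1 library. Median depth was 12772, 11442, 14104 and 20452 UMIs in the Nwd2-rich neurons and 9830, 9399, 12981 and 12787 UMIs in the other neurons, in the same order. COL2 was thus the deepest for these nuclei. COL1 stood apart in their number, and results that rest on it are given with and without it.

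Nwd2 lies on the plus strand at chr5:63649102-63810546 (mm10), a span of 161 kb. A transcript of unknown coding status on the minus strand, Gm9954, overlaps its start, and the processed pseudogene Gm3687 lies within it. The 250 bases before the RefSeq start of Nwd2 are shown because this gene chose the nuclei. Those of Pou4f1, Chrna3 and Chrnb4 are shown because the levels of all 3 were higher in Nwd2-rich neurons in each of the 4 libraries. The sequences are from RefSeq (GRCm38.p6) and read 5′ to 3′ on the gene's own strand, at chr5:63648853-63649102 (plus) for Nwd2, chr14:104468000-104468249 (minus) for Pou4f1, chr9:55026563-55026812 (minus) for Chrna3 and chr9:55048545-55048794 (minus) for Chrnb4. The gene spans in this report are from GENCODE, another annotation. Its start of Chrnb4 is at chr9:55048779, so most of the RefSeq window of Chrnb4 lies inside the GENCODE span. Capitals mark the GC box, GGGCGG, on either strand, and overlapping matches run together.

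Nwd2: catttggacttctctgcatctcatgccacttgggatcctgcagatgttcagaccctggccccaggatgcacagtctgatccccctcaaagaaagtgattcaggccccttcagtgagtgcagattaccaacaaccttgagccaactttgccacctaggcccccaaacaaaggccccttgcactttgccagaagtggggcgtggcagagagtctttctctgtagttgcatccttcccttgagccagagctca

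Pou4f1: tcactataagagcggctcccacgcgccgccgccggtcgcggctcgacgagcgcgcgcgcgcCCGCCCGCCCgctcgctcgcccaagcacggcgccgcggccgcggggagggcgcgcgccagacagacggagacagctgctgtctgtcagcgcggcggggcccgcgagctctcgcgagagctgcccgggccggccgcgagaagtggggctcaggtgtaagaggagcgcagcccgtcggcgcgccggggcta

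Chrna3: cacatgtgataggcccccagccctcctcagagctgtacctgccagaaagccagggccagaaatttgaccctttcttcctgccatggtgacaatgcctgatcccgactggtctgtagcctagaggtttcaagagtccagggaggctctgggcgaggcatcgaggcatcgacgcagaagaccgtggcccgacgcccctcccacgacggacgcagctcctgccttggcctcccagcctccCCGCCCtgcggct

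Chrnb4: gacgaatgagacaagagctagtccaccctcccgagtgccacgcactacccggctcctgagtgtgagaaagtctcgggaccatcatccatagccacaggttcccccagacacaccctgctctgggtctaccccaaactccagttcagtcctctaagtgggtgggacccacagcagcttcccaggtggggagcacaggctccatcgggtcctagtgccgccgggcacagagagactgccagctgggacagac

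The GC box occurred 2 times in the Pou4f1 window and 1 time in that of Chrna3. It was in 32.7% of the 32851 windows of this length in the table. The letters TAATTA, a homeodomain core, were in none of the 4 windows and in 4.84% of all windows. The share of G and C was 53.6% for Nwd2, 78% for Pou4f1, 63.2% for Chrna3 and 61.2% for Chrnb4, beside a median of 52.4% over the table. The Nwd2 window was therefore close to the middle of the table and the Pou4f1 window was rich in G and C.

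Nwd2 chose the nuclei, so its own values are a description. The neurons with at least 10 Nwd2 UMIs held a median of 21, 25, 51 and 16 Nwd2 UMIs in NS1, NS2, COL1 and COL2, with highest values of 139, 151, 409 and 114. The summed level was 2138, 2468, 4237 and 1027 CPM (UMIs of the gene for every 1000000 UMIs of the class) in these nuclei and 49.3, 58.0, 59.3 and 50.2 CPM in the other neurons. Among the Nwd2-rich neurons COL1 was the highest and COL2 the lowest, and in both classes the groups overlapped. Just inside the threshold, at 10 or 11 Nwd2 UMIs, were 15, 12, 20 and 27 neurons. Just outside it, at 8 or 9, were 28, 27, 33 and 35. The Nwd2-rich neurons held 50.2%, 56.6%, 85.5% and 43.6% of the Nwd2 UMIs of all neurons.

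The first comparison asked whether the share of Nwd2-rich neurons differed after the haemorrhage. There were 98 in NS1, 111 in NS2, 267 in COL1 and 92 in COL2. They made up 1.80% (95% Clopper-Pearson interval 1.46 to 2.19), 2.43% (2.00 to 2.92), 7.0% (6.21 to 7.86) and 2.41% (1.95 to 2.95) of the neurons. These intervals cover counting error only. COL1 had the highest share under every alternative run. COL2 fell between the NS libraries, but its place moved with the setting. At 5 or more Nwd2 UMIs it was 6.66%, above the 4.29% and 5.12% of NS, with 5 of 5 gate genes it was 3.05%, above 1.72% and 2.56%, and at 20 or more Nwd2 UMIs it was 0.786%, below 0.953% and 1.42%. After thinning it was 0.786% too, below 1.38% and 2.01%. The mean was 4.71% ± 3.25 in COL and 2.11% ± 0.445 in NS (SD, n = 2 each), a difference of 2.59 percentage points (two-sided exact permutation test, p = 0.667, and the smallest p that 2 against 2 libraries allow is 0.33). Without COL1 the difference was 0.299 points. How much tissue of each region entered a library was not measured, so a share that follows the dissection and one that follows the injury cannot be told apart.

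**Figure D1:**
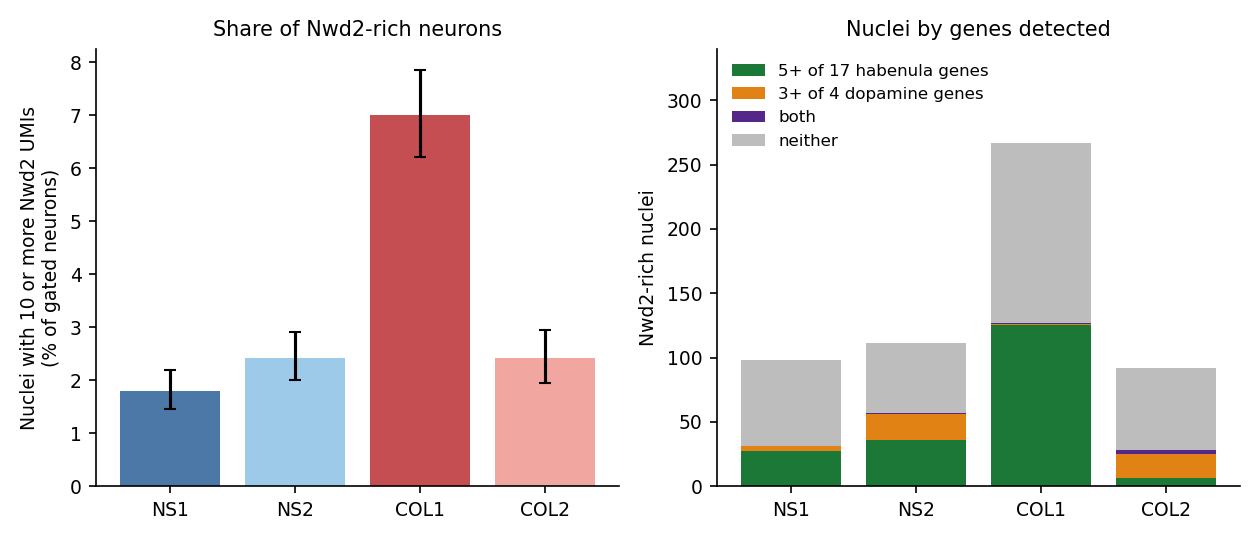
Left, share of neurons with 10 or more Nwd2 UMIs in each library, with exact 95% intervals. COL1 reached 7.0%, and the other libraries lay between 1.80% and 2.43%. Right, the same nuclei counted by whether they held a UMI of at least 5 of 17 habenula genes, of at least 3 of 4 dopamine genes, of both or of neither number. The habenula genes alone marked 125 nuclei in COL1 and 6 in COL2, and a further 1 and 3 nuclei reached both numbers.

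The Nwd2-rich neurons were a mixed set. A list of 17 habenula genes was used, with 15 genes of the medial habenula and the genes Pou4f1 and Gpr151 of both parts. The share of Nwd2-rich neurons with a UMI of at least 5 of them was 27.6% in NS1 (27 nuclei), 33.3% in NS2 (37), 47.2% in COL1 (126) and 9.78% in COL2 (9). Among the other neurons the same share was 0.429%, 0.157%, 0.197% and 0.295%, and among nuclei with fewer than 4 of the 5 neuronal genes, which failed the gate, it was at most 0.158%. Such nuclei still held Syt1 in a mean of 81.6% and Snap25 in 53% of cases, and can include neurons. The set held such nuclei in every library, most in COL1 and fewest in COL2. The list and the number of genes asked for were chosen with results of these data known, so this split is a description with no test. With each nucleus thinned to 4000 UMIs the shares were 16.3%, 13.5%, 17.2% and 2.17%, beside at most 0.0224% of other neurons, and COL2 stayed the lowest. These were still the nuclei chosen at full depth, of which 61, 79, 204 and 29 held 5 or more Nwd2 UMIs after thinning. The part of depth in the choice of the nuclei was therefore not removed.

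The share was larger at higher Nwd2 counts. Among neurons with 10 to 19 Nwd2 UMIs, 0%, 8.70%, 3.03% and 0% held at least 5 habenula genes in NS1, NS2, COL1 and COL2. From 20 to 39 the shares were 20.8%, 25.7%, 18.4% and 5.56%. At 40 or more they were 78.6% of 28 nuclei, 80.0% of 30, 75.7% of 152 and 66.7% of 12. COL2 rested on few nuclei there, with an interval of 34.9% to 90.1%. The number of nuclei with 40 or more Nwd2 UMIs was 152 in COL1 and 12 to 30 in the others. Seen from the other side, 54.0%, 84.1%, 94.7% and 45.0% of all neurons with at least 5 habenula genes were Nwd2-rich.

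**Figure D2:**
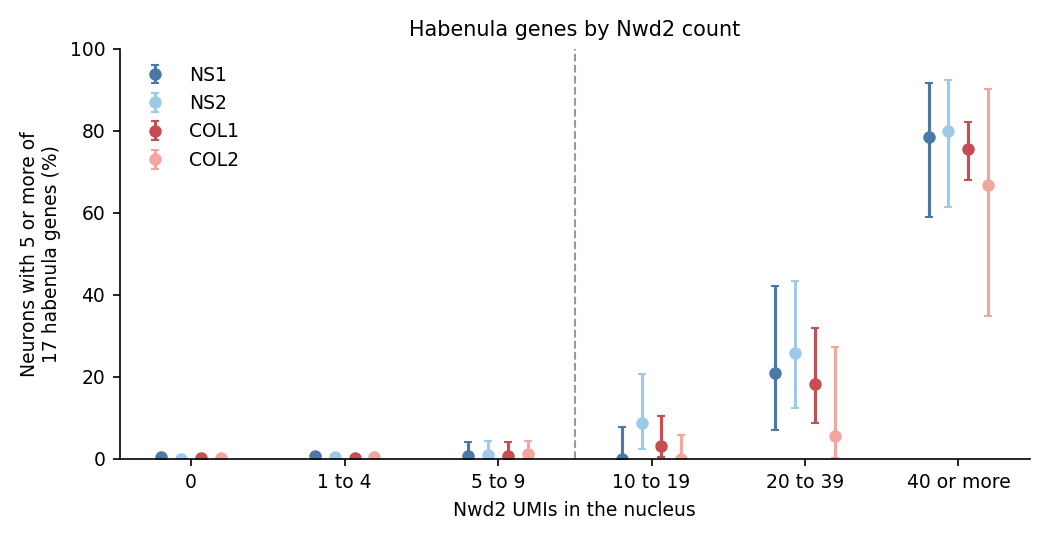
Share of neurons with a UMI of at least 5 of the 17 habenula genes, by the number of Nwd2 UMIs in the nucleus, for the 4 libraries, with exact 95% intervals. The dashed line marks the threshold of 10 UMIs. Shares at 40 or more Nwd2 UMIs lay between 66.7% and 80.0%, and below the threshold they did not pass 1.23%.

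The habenula genes Tac2, Chrnb4 and Gpr151 were followed singly. Tac2, which encodes neurokinin B, had a UMI in 17.3%, 26.1%, 35.6% and 12% of the Nwd2-rich neurons of NS1, NS2, COL1 and COL2. In the other neurons it was found in 6.35%, 5.27%, 4.60% and 3.06%. Chrnb4, the nicotinic β4 subunit, was found in 14.3%, 10.8%, 24.0% and 3.26% of the Nwd2-rich and in 0.597% to 0.806% of the other neurons. Gpr151, a receptor typical of habenula axons, was found in 9.18%, 9.01%, 8.61% and 4.35% against 0.456% to 0.990%. Every library had a higher share in its Nwd2-rich neurons, and COL2 had the lowest share for all 3 genes as counted. After the same nuclei were thinned to 4000 UMIs the shares were 10.2%, 16.2%, 15.7% and 3.26% for Tac2 against 1.13% to 2.80% of other neurons. For Chrnb4 they were 9.18%, 3.6%, 11.6% and 1.09%, and for Gpr151 6.12%, 4.50%, 2.25% and 2.17%, so that COL1 and COL2 were near each other for Gpr151. In nuclei that failed the neuronal gate, which had median depths of 4890 to 5867 UMIs, Tac2 had a UMI in 1.72% to 4.58%.

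A smaller number of Nwd2-rich neurons carried dopamine genes. A UMI of at least 3 of Th, Ddc, Slc18a2 and Slc6a3 was found in 4, 21, 2 and 22 of them in NS1, NS2, COL1 and COL2, or 4.08%, 18.9%, 0.749% and 23.9%. In the other neurons the share was 0.840%, 0.919%, 0.0846% and 0.698%. The number of genes was chosen after the values had been seen, so this split is a description with no test. Nuclei that reached both numbers of genes were 0, 1, 1 and 3, beside 27, 37, 126 and 9 with at least 5 habenula genes. Their median depth was 23218, 58130 and 39111 UMIs in NS2, COL1 and COL2. Whether the 2 kinds overlapped less than their numbers would give was not tested. The remaining 67, 54, 140 and 64 nuclei fell short of both numbers of genes. COL1, the library richest in habenula nuclei, was the poorest in dopamine nuclei, and the COL libraries lay at opposite ends for both.

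In the nuclei with at least 5 habenula genes and fewer than 3 dopamine genes, genes that were not on the list were also high in each library. Scube1, a secreted protein with EGF and CUB domains, was at 1215, 1121, 1792 and 1578 CPM in NS1, NS2, COL1 and COL2, against 8.88 to 15.2 in the other neurons. Robo3, a receptor that steers crossing axons, was at 268, 258, 255 and 273 CPM. The Robo3 levels of the 4 libraries were near each other within this split, while over all Nwd2-rich neurons they were 81.3, 86.2, 118 and 15.3. Slc17a7, the vesicular glutamate transporter VGLUT1, was at 84.9, 117, 94.2 and 162 CPM, against 6.58 to 19.2 in other neurons. These nuclei numbered 27, 36, 125 and 6, and genes outside the list were picked after their values were seen.

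The nuclei with dopamine genes are described by genes picked after their values were seen. In NS2 and COL2, which held 20 and 19 of them, Drd2, the dopamine autoreceptor, was at 313 and 269 CPM, and at 18.2 and 10.1 in the habenula nuclei of the same libraries. Lmx1b, a transcription factor of midbrain dopamine neurons, was at 157 and 198 CPM and Chrna6, a nicotinic subunit of dopamine neurons, at 72.9 and 59.1. Tcf7l2, a transcription factor of thalamus and habenula, was at 48.6 and 81.5 CPM there and at 636 and 556 in the habenula nuclei of the same libraries. Robo3 and Chrnb4 had no UMI in any of these dopamine nuclei.

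The second comparison set the Nwd2-rich neurons against the other neurons of the same libraries, with UMIs summed per library and class and the library as a block. The nuclei had been chosen on Nwd2, so Nwd2 and the 5 neuronal genes were left out of the calls. Of 21430 genes tested, 672 were higher and 932 lower at an adjusted p under 0.05 (edgeR quasi-likelihood test, Benjamini-Hochberg), which is 3.14% and 4.35%, or 7.48% in all. Higher genes made up 41.9% of the calls, and 52.9% when DESeq2 and its size factors were used (746 higher, 664 lower). Without COL1 the calls numbered 411 and 352, and without NS2 they numbered 368 and 564.

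Of the 17 habenula genes, 16 could be tested, and 12 of them were higher and none lower, beside the 3.14% of all genes. Their median log2 difference was 3.01, against -0.05 over all genes tested. All 12 were also higher when each library was left out in turn. The nuclei were not chosen on these genes, but the list was drawn up with earlier results of these data known.

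Genes of acetylcholine were among them. Chat, which makes acetylcholine, was at 32.5, 31.2, 73.2 and 21.2 CPM in the Nwd2-rich neurons of NS1, NS2, COL1 and COL2, and at 1.51, 1.10, 2.72 and 1.01 in the other neurons. The difference was 4.64 ± 0.15 (log2, SE, adjusted p = 7.79e-08). Slc5a7, which takes choline back into the terminal, was higher by 3.57 ± 0.22. Slc18a3, which loads acetylcholine into vesicles, did not pass the filter on low counts and gave 1, 5, 6 and 0 UMIs. Only a minority of the nuclei held Chat, between 6.52% and 30.7%.

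Of 9 nicotinic subunits 8 were tested, and 4 were higher and none lower, beside 3.14% and 4.35% of all genes. Chrna3 was at 30.4, 33.9, 45.0 and 7.90 CPM against 1.28 to 2.66 in other neurons (3.89 ± 0.39, adjusted p = 1.82e-04). Chrnb4 was at 14.8, 10.9, 28.4 and 1.97 against 0.518 to 0.644 (4.45 ± 0.52, adjusted p = 4.31e-04). Chrnb3 was at 32.5, 40.7, 34.3 and 37.5 against 0.962 to 3.55 (4.38 ± 0.25). For Chrna3 and Chrnb4, COL2 was the lowest library, whereas for Chrnb3 it was not. Chrna5 gave 1, 10, 0 and 7 UMIs and did not pass (2.10 ± 0.61, adjusted p = 0.0645), nor did Chrna4 (0.18 ± 0.22), Chrna7 (0.18 ± 0.21) and Chrnb2 (0.38 ± 0.16). Chrna5, Chrna3 and Chrnb4 stand side by side on chromosome 9, at chr9:54980880-55007779, chr9:55010111-55026562 and chr9:55028154-55048779, with gaps of 2.33 and 1.59 kb.

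Pou4f1 was at 35.4, 24.4, 33.1 and 5.43 CPM in the Nwd2-rich and at 1.09, 2.74, 0.944 and 1.77 in the other neurons (3.95 ± 0.47, adjusted p = 4.73e-04). A long noncoding RNA, D130079A08Rik, starts 2.34 kb beyond its end on the same strand, and another, D130009I18Rik, begins 145 kb away on the opposite strand. Both were named here after their values were seen. D130079A08Rik was at 304, 343, 360 and 73.1 CPM against 3.03 to 13 (5.25 ± 0.43, adjusted p = 4.77e-05). D130009I18Rik was at 125, 208, 320 and 17.8 against 3.55 to 11.2 (4.30 ± 0.47). All 3 neighbours at this place on chromosome 14 were thus higher in each library, and COL2 was lowest for each. Whether their reads come from separate transcripts was not tested.

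The other habenula genes that passed were Nr4a2 (3.34 ± 0.24), a nuclear receptor also known in dopamine neurons, Tac2 (2.68 ± 0.32), Lrrc55 (2.61 ± 0.33), a subunit of potassium channels, Gng8 (2.51 ± 0.31), a G protein subunit, Kctd8 (2.13 ± 0.29), an auxiliary protein of GABA-B receptors, and Gpr151 (3.43 ± 0.34). Kctd12b, Calb2 and Tac1 did not, with differences of 2.19 ± 0.68, 0.12 ± 0.15 and -0.38 ± 0.24. Tac1 encodes substance P and was at 16.3, 6.79, 5.15 and 6.91 CPM in the Nwd2-rich and 27.3, 14.2, 3.79 and 8.66 in the other neurons. Among the 4 lateral habenula genes none was higher and 1 was lower, the muscarinic receptor Chrm3 (-0.72 ± 0.11, adjusted p = 0.00228), beside 3.14% and 4.35% of all genes. The Chrm3 call was lost at 5 or more Nwd2 UMIs.

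**Figure D3:**
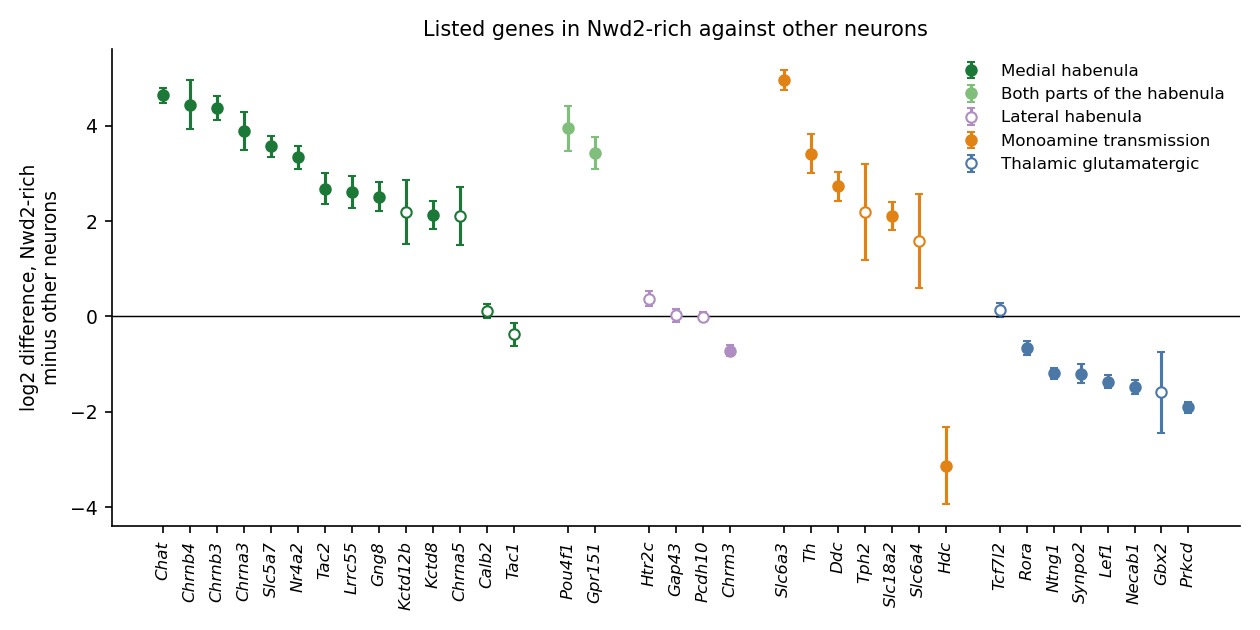
log2 difference between Nwd2-rich and other neurons (edgeR, bars are SE) for the tested genes of 5 lists. Filled points passed an adjusted p of 0.05 and open points did not. Of 8 thalamic glutamatergic genes 6 were lower, and 12 of the 16 habenula genes tested in the first 2 lists were higher.

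Dopamine genes were higher as well, with 4 of the 7 tested genes of the monoamine list higher and 1 lower, beside 3.14% and 4.35% of all genes. Slc6a3, the dopamine transporter, was at 41.7, 117, 8.51 and 131 CPM in the Nwd2-rich neurons of NS1, NS2, COL1 and COL2, against 1.84, 4.16, 0.407 and 2.70 (4.96 ± 0.20, adjusted p = 3.71e-07). Th was at 16.3, 83.5, 2.91 and 45.4 against 5.10, 3.85, 0.555 and 2.74 (3.41 ± 0.40, adjusted p = 4.50e-04). Ddc and Slc18a2 were higher by 2.73 ± 0.30 and 2.11 ± 0.30. COL1 was the lowest library for Slc6a3 and Th in each class, and the difference between classes was present in it too. These 4 calls held when each library was left out. Hdc, which makes histamine, was lower (-3.13 ± 0.81, adjusted p = 0.0389) but lost its call without COL2 and without either NS library, with log2 values from -4.08 to -2.32 over the 4 fits. Lmx1b and Chrna6 were higher by 2.36 ± 0.27 and 3.76 ± 0.36, and Chrna6 lost its call after thinning to 4000 UMIs.

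Genes of thalamic relay neurons were lower. None of the 8 listed was higher and 6 were lower, beside 4.35% of all genes. Markers of glia moved the same way, with 4 of 6 oligodendrocyte, 3 of 3 oligodendrocyte precursor and 3 of 6 microglia and macrophage genes lower and none higher, and their part in the comparison was not tested. Without COL1 these counts were 0 of 6, 1 of 3 and 1 of 6, beside 352 lower of all 21600 genes in that fit. Without COL2 they were 2 of 6, 2 of 3 and 2 of 6, beside 1313 lower of 21468. The median log2 differences of these lists stayed below 0. In the same order they were -0.81, -1.37 and -0.86 with all libraries. They were -0.57, -1.24 and -0.56 without COL1, and -0.63, -0.995 and -0.83 without COL2. Without NS1, 1 of the 6 microglia and macrophage genes was lower. When only other neurons that held a Slc17a6 UMI were the comparator, Pdgfra was the only one of these glial genes to keep its call. Prkcd, a protein kinase C, was at 8.48, 20.4, 36.7 and 13.3 CPM in the Nwd2-rich and 37.2, 72.0, 128 and 61.7 in the other neurons (-1.91 ± 0.12, adjusted p = 5.68e-06). Necab1 (-1.47 ± 0.15), Lef1 (-1.37 ± 0.13), Synpo2 (-1.20 ± 0.21) and Ntng1 (-1.19 ± 0.11) were lower as well. Rora was lower by -0.66 ± 0.15 but lost its call when COL1 or either NS library was left out, with values between -0.87 and -0.52. Tcf7l2, which thalamus and habenula share, did not differ beyond its error (0.14 ± 0.15, adjusted p = 0.702). Its level was 404, 371, 563 and 244 CPM against 240, 338, 582 and 315.

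Transmitter genes showed no single type. Slc17a6, the vesicular glutamate transporter VGLUT2, was at 123, 74.0, 86.4 and 77.5 CPM in the Nwd2-rich and 101, 97.8, 101 and 89.0 in the other neurons (-0.11 ± 0.11, adjusted p = 0.693). Slc17a7 was higher (1.31 ± 0.19, adjusted p = 0.00175), at 23.3, 46.2, 48.4 and 11.4 against 6.58, 15.8, 19.2 and 9.69, and lost its call at 5 or more Nwd2 UMIs. Gad2, which makes GABA, was lower (-0.73 ± 0.20, adjusted p = 0.0458), although in COL2 it was at 106 against 107 CPM. This call was lost without COL1 and without either NS library, with values between -1.02 and -0.54. In nuclei thinned to 4000 UMIs, a glutamate transporter gene without a GABA gene was found in 19.4%, 35.1%, 34.8% and 22.8%, against 20.3%, 25%, 25.9% and 20.8% of other neurons. It was thus lower in NS1 and higher in the other libraries, by little in COL2. A GABA gene without a glutamate gene was found in 12.2%, 11.7%, 14.2% and 19.6%, against 36.6%, 26.4%, 21.7% and 27.4% of other neurons. Each library thus had a lower share of GABA-only nuclei among its Nwd2-rich neurons.

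GABA-B receptor genes and channels were also listed. Gabbr1, a receptor subunit, was at 257, 318, 373 and 178 CPM against 160, 147, 154 and 149 (0.86 ± 0.14, adjusted p = 0.00334). Its partner Gabbr2 was higher by 0.55 ± 0.14, a call lost without COL1 or either NS library (0.45 to 0.73). Kctd16, an auxiliary protein like Kctd8, was lower by -0.79 ± 0.13. With Kctd8 this made 3 of 6 genes of the list higher and 1 lower, beside 3.14% and 4.35% of all genes. Of 8 pacemaking channels, the T-type calcium channel Cacna1g was lower by -0.74 ± 0.13 and the potassium channel partner Kcnip1 was higher by 1.01 ± 0.24, in 3 of 4 libraries. The Kcnip1 call was lost without COL1 or either NS library, with values from 0.69 to 1.35. Of 4 opioid receptor genes none was higher and 1 was lower, Oprd1 (-1.02 ± 0.28, adjusted p = 0.0486). This call was lost without COL2 or either NS library, with values from -1.38 to -0.87. Nwd1, a relative of Nwd2, gave -0.59 ± 0.15 (adjusted p = 0.0298), a call lost without COL1 and without NS2, with values from -0.67 to -0.45. It was at 18.4, 12.2, 8.73 and 18.3 CPM against 23.1, 18.5, 17 and 26.0.

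Of the 21430 genes tested, those of the lists included, 360 were higher and 446 lower by a stricter rule. They passed edgeR at an adjusted p under 0.05, with the same direction in each of the 4 libraries. Their mean over libraries was 20 or more CPM in the higher class. They had a UMI in at least 25% of its nuclei pooled over libraries, of which COL1 gave 267 of 568 on the Nwd2-rich side. Leaving aside genes with Gm or Rik names, such as D130079A08Rik, the largest differences among these were those of Robo3 (5.47 ± 0.33), Scube1 (5.08 ± 0.31) and Ano1 (4.68 ± 0.27), a calcium-activated chloride channel, each with an adjusted p of 5.68e-06. Scube1 was at 347, 407, 862 and 120 CPM in the Nwd2-rich and 8.88, 9.85, 15.2 and 10.4 in the other neurons. Ano1 was at 187, 204, 392 and 41.0 against 7.17, 5.01, 12 and 4.43. As for Robo3, COL2 was lowest and COL1 highest, and the 2 classes did not overlap for any of the 3 genes. Together with Pou4f1, Chrna3, Nr4a2, Tac2 and Lrrc55 of the lists, the 20 largest included Clec18a (3.80 ± 0.33), Tspan18 (3.05 ± 0.44), Lix1 (2.68 ± 0.21), Tex15 (2.65 ± 0.26), Ror2 (2.5 ± 0.42), a receptor for Wnt proteins, Vav2 (2.48 ± 0.29) and Colgalt2 (2.46 ± 0.15). Prkcq (2.37 ± 0.37), another protein kinase C, Tesc (2.35 ± 0.18), Cadps2 (2.27 ± 0.25), which primes dense-core vesicles, the chloride channel Cftr (2.26 ± 0.18) and the synaptotagmin Syt6 (2.25 ± 0.37) completed them. Of these 20, Ror2 and Prkcq lost their calls at 5 or more Nwd2 UMIs.

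The lowest were Ptk2b (-2.20 ± 0.13), a tyrosine kinase, Cnksr3 (-1.97 ± 0.14), Plekhg1 (-1.93 ± 0.13), Ptpn3 (-1.81 ± 0.11), a tyrosine phosphatase, and Rorb (-1.60 ± 0.19), a nuclear receptor. Clmn (-1.57 ± 0.11), Fstl4 (-1.54 ± 0.23), Npas2 (-1.48 ± 0.17), a partner of the clock, Pde7b (-1.47 ± 0.14), which breaks down cAMP, and Necab1 followed. Ptk2b was at 4.95, 8.82, 20.4 and 10.4 CPM in the Nwd2-rich and 33.5, 37.3, 93.5 and 45.7 in the other neurons. All of these 30 genes passed in each fit that left out a library.

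**Figure D4:**
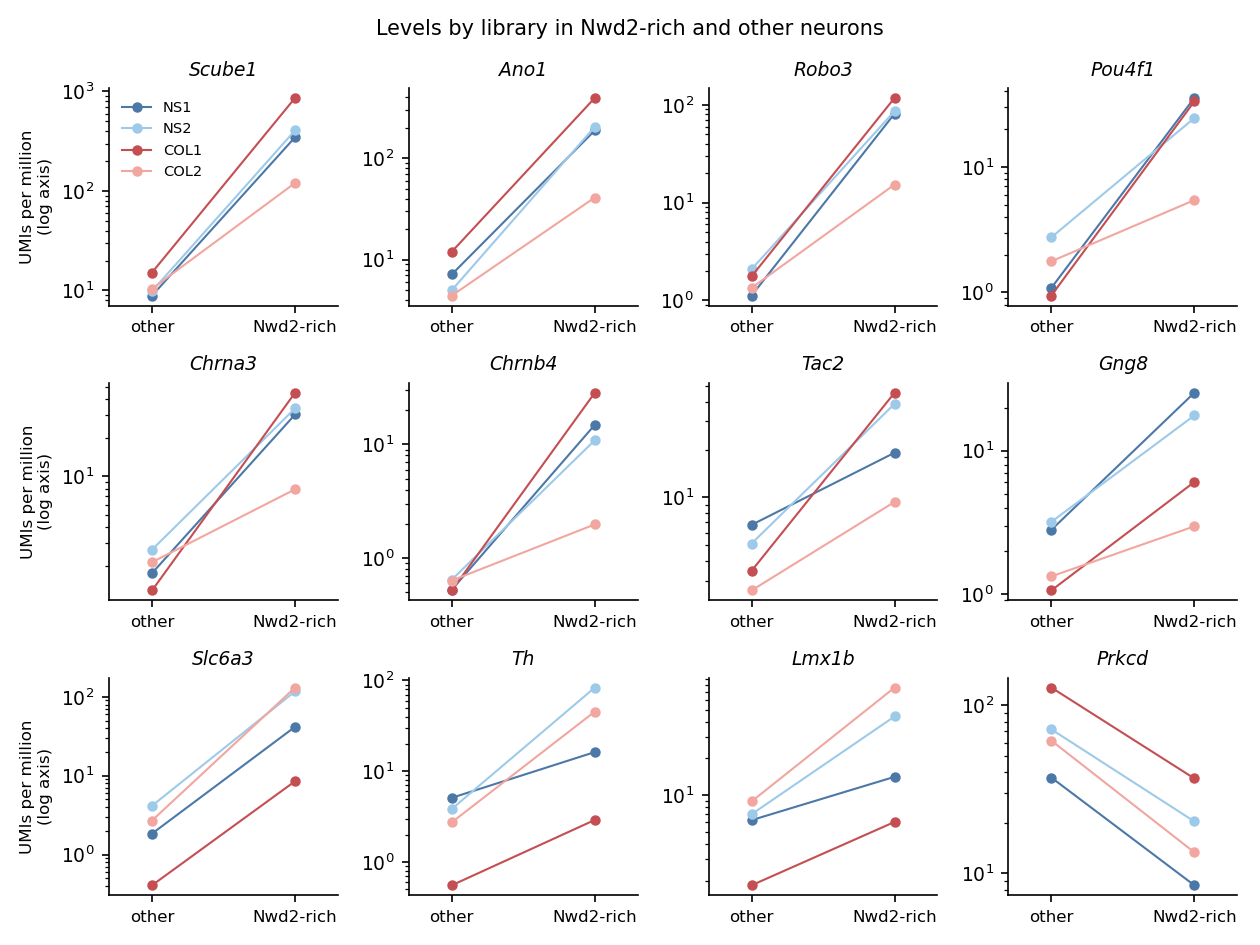
CPM (log axes) of 12 genes in other neurons and in Nwd2-rich neurons, a line for each library. Every line rises except those of Prkcd, which fall in all 4 libraries, and COL2 has the smallest rise for Scube1, Ano1, Robo3 and Pou4f1.

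The third comparison asked which genes differed between COL and NS within the Nwd2-rich neurons. At an adjusted p under 0.05, edgeR called 0 of 12300 genes, or 0%, while 1762 had an unadjusted p under 0.05. DESeq2 called 25. Without COL1 the number was 891, in a fit in which COL2 stood alone and was assumed to vary like the NS libraries. The COL libraries differed from each other in what their nuclei were, as the shares of habenula and dopamine nuclei show, and the part of this in the comparison was not tested.

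Of the 17 habenula genes 14 could be tested, and none passed. Their median log2 difference was -0.02, beside -0.01 over all genes. Without COL1 the median was -1.26 and 7 of 15 tested were lower, beside 473 of all 12877 genes in that fit, and without COL2 it was 0.48 with none called. Chrnb4 had a difference of 0.42 ± 0.95 (log2, adjusted p = 0.883), which turned to -2.64 without COL1. Tac2 had 0.05 ± 0.71 and turned to -1.61. Lrrc55 turned from 0.50 ± 0.71 to -1.26. Slc6a3 went the other way, from -0.26 ± 1.08 to 0.72, and Slc18a2 from -0.09 ± 1.03 to 0.88. All 5 genes passed the test in the fit without that library. The direction also turned, without passing, for Tac2 without NS1 (-0.40) and for Slc6a3 (0.78) and Slc18a2 (0.48) without NS2.

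Gng8 was the habenula gene with the smallest p. It was at 25.5 and 17.6 CPM in the NS and at 6.04 and 2.96 in the COL libraries (-2.10 ± 0.44, adjusted p = 0.225). Within the habenula nuclei Gng8 was at 75.1 and 41.7 in NS and at 11 and 40.5 in COL, where COL2 rested on 6 nuclei. Over the other neurons Gng8 was at 2.80 and 3.18 in NS and 1.05 and 1.32 in COL.

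Of 12 genes of the response to injury 7 were tested and none passed. Jun, Sox11, Ecel1, Ddit3 and Bdnf gave log2 differences of 0.48 ± 0.54, 0.24 ± 0.37, 0.66 ± 0.46, 0.69 ± 0.41 and -0.06 ± 0.33, each smaller than 2 SE. Hmox1, which breaks down haem, had no UMI in the Nwd2-rich neurons of either NS library and 44 and 12 UMIs in those of the COL libraries, found in 12% and 13% of nuclei. With UMIs pooled over the libraries of a group, this was 8.30-fold above a floor of 3 UMIs over the NS group. That ratio leaves out the spread between libraries. The edgeR test, which does not use this floor, gave an adjusted p of 0.225. In the other neurons Hmox1 was at 0.312 and 0.208 CPM in NS and 21.4 and 18.6 in COL. Stat3, a mediator of cytokine signals, was at 31.8 and 43.4 in NS and 69.6 and 86.4 in COL (1.07 ± 0.23, adjusted p = 0.225). Atf3, an injury transcription factor, had 0 and 0 UMIs in NS and 12 and 7 in COL. Pooled in the same way, this was 2.82-fold above the same floor. Atf3 was under the filter on low counts and had no test. With 2 libraries a group, separate NS and COL values for these 3 genes are a description, and the share over all genes was not counted. For Stat3 the COL effect differed from that in the other neurons by -0.20 ± 0.23 (log2), which did not pass. Inpp5d, a gene of microglia, gave 1 and 2 UMIs in NS and 83 and 29 in COL (log2 difference 3.97 ± 0.55). Other genes of the same list went both ways, and none passed. P2ry12 (-1.52 ± 0.36) and Cx3cr1 (-0.43 ± 0.42) were below 0, and Csf1r (0.93 ± 0.46) and F13a1 (1.01 ± 0.81) were above it. The 6 microglia and macrophage genes together were at 60.1 and 78.1 CPM in the NS and 49.9 and 77.5 in the COL Nwd2-rich neurons, and at 106 and 107 in NS and 555 and 826 in COL nuclei that failed the neuronal gate. Of these 6 genes, 1 was at 0 in the Nwd2-rich neurons of NS1. Their part in the levels above was not tested.

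The last comparison tested whether the COL effect differed between Nwd2-rich and other neurons. Of 23621 genes, 22 did (0.0931%), with a COL effect that was higher for 2 and lower for 20 in the Nwd2-rich neurons (edgeR, class-by-group term). The 2 higher genes, Hpse2 and the predicted gene Gm49678, are named after their values were seen, with terms of 3.23 and 1.85 (log2). Hpse2 kept its call without each library and lost it at 5 or more and at 20 or more Nwd2 UMIs and after thinning. Oligodendrocytes are the myelinating glia. Of the 6 listed oligodendrocyte genes 3 were among the 20 lower ones, Mbp, Mog and St18, beside 0.0847% of all genes (0.00847% were higher). Mbp, myelin basic protein, was at 161 and 147 CPM in the NS and 115 and 167 in the COL Nwd2-rich neurons. In the other neurons it was at 181 and 194 in NS and at 335 and 486 in COL. The term was -1.29 ± 0.20 (log2, adjusted p = 0.0169), and its call was lost without NS1 (-1.07) and without NS2 (-1.32). Mog (-1.34 ± 0.21) was lost without NS1 (-1.15) and without NS2 (-1.35) too, and St18 (-1.40 ± 0.24) without NS1 (-0.92). The count of 3 of 6 was 0 without NS1 and 1 without NS2, where 16 and 15 of all genes were lower. It was 6 without COL1 and 6 without COL2, where the lower genes numbered 332 of 25059 and 213 of 24721.

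The gene with the smallest p was Prr5l, at 86.3 and 108 CPM in the NS and 93.1 and 83.9 in the COL Nwd2-rich neurons, and at 93.0 and 105 in the NS and 325 and 386 in the COL other neurons (-2.00 ± 0.20, adjusted p = 0.00141). Aspa, the enzyme that cleaves N-acetylaspartate in oligodendrocytes, was at 36.8 and 42.1 in NS and 14.6 and 17.8 in COL Nwd2-rich neurons (-1.88 ± 0.23, adjusted p = 0.00475). In the other neurons Aspa was at 30.9 and 43.6 in NS and 44.4 and 67.1 in COL. For Prr5l the Nwd2-rich groups overlapped and only the other neurons of the COL libraries stood apart. Of the 12 lower genes named by the rule, the term kept its call for Prr5l, Aspa, Daam2 and Mdfic in all 4 fits that left out a library, and Mdfic lost it after thinning. The oligodendrocyte list as a whole was at 958, 958, 584 and 1050 CPM in the Nwd2-rich neurons and at 1001, 1123, 1396 and 2259 in the other neurons, with none of its 6 genes at 0. It was at 7552 to 9831 in nuclei that failed the neuronal gate. The part of free RNA or of merged nuclei in these values was not tested, and 25 genes were called once nuclei with high doublet scores had been taken out, when Daam2 and Mog lost their calls.

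**Figure D5:**
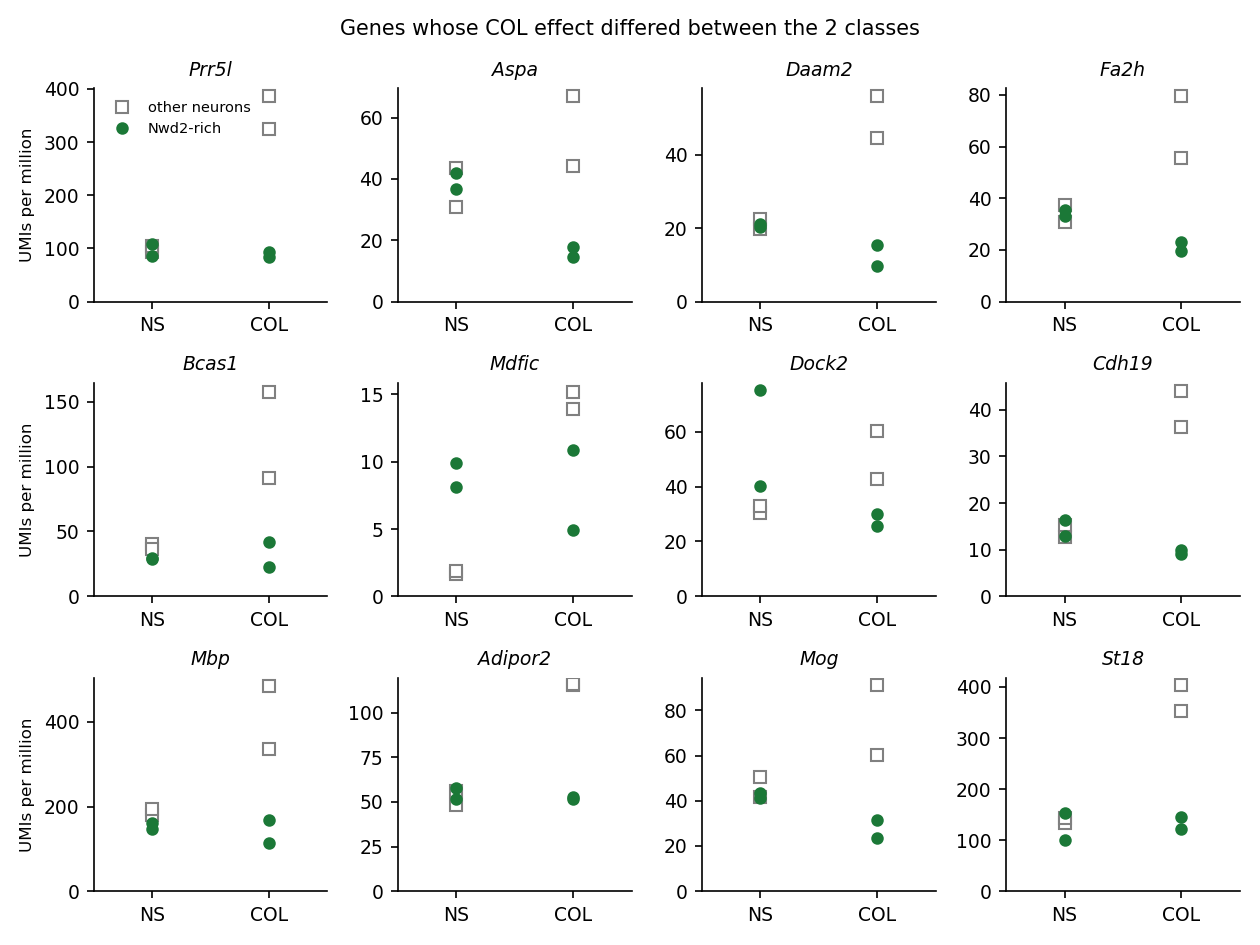
CPM of 12 genes in NS and COL libraries, for Nwd2-rich neurons (green circles) and other neurons (grey squares). In the COL libraries the other neurons lie above the Nwd2-rich ones for each gene, for Prr5l at 325 and 386 against 93.1 and 83.9.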

How the data were processed

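In all, 4 pooled libraries of nuclei were compared, 2 NS and 2 COL, grouped by their labels. For each library the authors deposited whole-number UMI counts, made with Cell Ranger 1.2.0 and the mm10 build per the submitters' processing notes, without normalization. The members and the gene lists were chosen with earlier results of these data known.

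Nuclei and neurons were kept as described in the report. Counts were summed per library and class and tested with the edgeR quasi-likelihood test (4.0.16, R 4.3.3, TMM factors, filterByExpr) at a Benjamini-Hochberg adjusted p under 0.05. Nwd2-rich and other neurons were compared with the library as a block. Shares were compared with a two-sided exact permutation test, and their Clopper-Pearson intervals were made with scipy 1.17.1. Folds are log2 with SE. Genes were named from the lists, and as the 20 largest and 10 lowest differences among genes that passed, had the same direction in 4 of 4 libraries, at least 20 CPM in the mean of libraries and a UMI in at least 25% of the pooled nuclei of the higher class. Genes with Gm or Rik names were counted but passed over. For the class-by-group term the genes with the smallest p were named. Doublets were scored with Scrublet (scanpy 1.11.5) and removed only in an alternative.

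On simulated counts edgeR recovered 95% of genes changed by 2 and 14% of those changed by 1 log2 unit for COL against NS (11828 genes). For Nwd2-rich against other neurons it recovered 100% and 96% (21039 genes), and for the class-by-group term 92% and 33% (21362 genes). The changed genes were drawn from those above the median level, with the spread taken from the trend over genes. Genes of lower level or of larger spread than the trend, and libraries of a group that differ in make-up, were not simulated. Alternatives were other Nwd2 and depth thresholds, thinning, other comparators, DESeq2 1.42.0, RLE factors, no filter and leaving out each library. Others were a replicate block for COL against NS and no library block for Nwd2-rich against other neurons.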

Additional observations from a re-analysis of the deposited data

Results flagged for a closer look

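The COL effect differed between Nwd2-rich and other neurons for 22 genes by the class-by-group term (edgeR). Among the genes named by the rule, the term was -2.00 for Prr5l, -1.88 for Aspa, -2.07 for Daam2, -1.67 for Fa2h, -1.63 for Bcas1 and -3.40 for Mdfic (log2). A term below 0 means a lower COL effect in the Nwd2-rich neurons, not a lower level. It was -1.74 for Dock2, -2.16 for Cdh19, -1.29 for Mbp, -1.26 for Adipor2, -1.34 for Mog and -1.40 for St18. Of these 12 genes, 4 kept an adjusted p under 0.05 when each library was left out, and the others lost it without 1 or both NS libraries. The terms of those others stayed below 0 in each of these fits. They ranged from -1.28 to -1.13 for Adipor2, -1.72 to -1.44 for Bcas1, -1.80 to -1.48 for Fa2h and -1.67 to -0.92 for St18. Mdfic was at 9.90 and 8.15 CPM in the NS and 4.93 and 10.9 in the COL Nwd2-rich neurons, and at 1.64 and 1.89 in the NS and 13.9 and 15.2 in the COL other neurons. Dock2 was at 40.3 and 75.3 in NS and 25.5 and 30.1 in COL Nwd2-rich neurons, and at 30.3 and 32.9 in NS and 42.8 and 60.2 in COL other neurons.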

How the results depend on the processing

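The difference in share kept its direction under every alternative run, and leaving out 1 library gave 0.299 to 4.89 percentage points. For Nwd2-rich against other neurons the number of genes called was 1604. It was 164 with no library block, a fit that ignores that both classes come from the same library. Of these, 148 were higher and 16 lower (90.2% higher, against 41.9%), and Prkcd and Ptk2b were among the lower genes that lost their call. With the library block the number ranged from 763 to 2224 when a library was left out (763 without COL1, 932 without NS2). For COL against NS the 0 genes became 25 with DESeq2, 813 with no filter on low counts, 4 after thinning and 104 with the replicate block, and ranged from 0 to 891 when a library was left out (891 without COL1). The numbers pair no animals as far as the labels say, and the differences between replicates of the 2 groups had a correlation of 0.081 over 12301 genes. For the class-by-group term the 22 genes became 78 at 20 or more Nwd2 UMIs, 143 with no filter and 57 after thinning, and ranged from 19 to 527 when a library was left out (527 without COL1, 299 without COL2). Causes of these changes were not tested. The mean share with a UMI was 34.4% for Tac2 and 12.4% for Gpr151 at 20 or more Nwd2 UMIs, and 4.31% for Gpr151 at 5 or more, against 22.8% and 7.79%. For Chrnb4 it was 20.8% and 7.72% at those thresholds, against 13.1%, and 8.36% after thinning. After that thinning, in which nuclei were chosen again at 5 or more Nwd2 UMIs, COL1 and not COL2 had the lowest Gpr151 share (2.84%, against 5.43% to 8.0%).

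Without COL1, the COL against NS difference reversed to -1.61 for Tac2, -2.64 for Chrnb4, -1.26 for Lrrc55, 0.88 for Slc18a2 and 0.72 for Slc6a3. Over the 4 fits that left out a library it ranged from -1.61 to 0.77, -2.64 to 1.24, -1.26 to 1.23, -3.02 to 0.88 and -3.14 to 0.78, in the same order. Against other neurons, Gap43 moved from 0.02 ± 0.13 to -0.57 after thinning, and Sim1 from 0.10 ± 0.34 to -2.10 at 20 or more Nwd2 UMIs. Neither had passed before, and both values lay within their error of 0. Of the genes called lower, Dlx6os1 turned from -0.55 ± 0.15 to 0.28 with Slc17a6 neurons as comparator. Hcrt turned from -0.79 ± 0.20 to 0.13 at 5 or more Nwd2 UMIs. DESeq2 moved the median of all genes by 0.25 (log2) in that comparison. With 2 libraries a group and 92 to 267 Nwd2-rich neurons a library, changes of the smaller size simulated were mostly not recovered between COL and NS. Larger differences in the data did not pass either, such as -2.10 for Gng8 and 3.23 for Hpse2. Such differences are estimates whose true size is not known, so they do not measure recovery. Whether the simulated recovery holds for every gene was not tested.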

Other observations

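The Nwd2-rich neurons with fewer than 5 habenula and fewer than 3 dopamine genes numbered 67, 54, 140 and 64 in NS1, NS2, COL1 and COL2. The genes that led them over other neurons were chosen after their values were seen and are a description. They included Lypd6b (a mean log2 difference of 1.97), Trpm3 (1.67), a cation channel, Lypd6 (1.49), Htr1f (1.40), a serotonin receptor, Kctd8 (1.40), itself one of the 17 habenula genes and found in 65.7% to 82.1% of them, Syt6 (1.31) and Foxp2 (1.26), a transcription factor. Over the libraries the differences ranged from 0.09 to 2.44 for Syt6, 0.41 to 1.83 for Kctd8 and 1.11 to 1.70 for Htr1f. The means were smaller than those that led the habenula nuclei, among them Scube1 (6.07) and Ano1 (5.39). Robo3 was at 32.0, 40.2, 24.9 and 3.03 CPM in these nuclei, above the 1.12 to 2.08 of other neurons.

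Nuclei that failed the neuronal gate held a Nwd2 UMI in 6.64%, 7.30%, 27.5% and 8.78% of cases. The high value was in COL1, which also had the most Nwd2-rich neurons. The share of other neurons with a Nwd2 UMI was 26.7%, 30.1%, 45.6% and 30.4%, again highest in that library.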
